A study of Mus musculus with 31 samples.

Results

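Skeletal muscle genes were followed in dissected mouse fat. A list of 40 genes of the muscle contractile apparatus, its calcium handling and its energy supply was chosen by name, with earlier results of these data known. Of the 40, 36 had a row among the 17334 transcript rows measured. Tnni1, Tpm1, Eno3 and Cacna1s were not analysed here. By the fibre type in which each gene is best known, 7 of the 36 were slow, 13 were fast and 16 were shared by both fibre types or had another role. Libraries came from male C57BL/6J mice aged 8 weeks that were first kept at thermoneutrality for 8 days. Day 0 animals were killed at that point, and the remainder spent 2 or 4 days at 4 °C before bulk RNA was sequenced from 3 dissected depots. Cold-exposed interscapular brown fat (iBAT) gave 4 libraries at day 2 and 3 at day 4, against 3 at day 0. Cold-exposed inguinal white fat (iWAT) gave 3 at day 2 and 5 at day 4, against 4 at day 0, and epididymal white fat (eWAT) gave 3 at each day, for 31 in all. The labels do not say whether the libraries of a group came from separate animals, so p-values measure the spread between these libraries.

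Striated muscle contracts when myosin thick filaments pull on actin thin filaments, and the troponin and tropomyosin of the thin filament gate this pull by calcium. Slow oxidative fibres use the heavy chain Myh7 with the light chains Myl2 and Myl3, whereas fast fibres use Myh2, Myh1 or Myh4 with Mylpf and Myl1, and each fibre class has its own troponin subunits. Interscapular brown fat lies against the muscles of the back and shoulder and its adipocytes share a developmental lineage with skeletal muscle, whereas inguinal fat lies at the flank and epididymal fat beside the epididymis. In bulk tissue, fewer cells of a type and less RNA per cell cannot be told apart.

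Total counts per library ranged from 1577168 to 3756389 in iBAT, 1502823 to 5527239 in iWAT and 3193060 to 4033224 in eWAT, and levels are given as CPM, the count scaled to that total. The labelled depots were checked against brown adipocyte markers: the summed level of Ucp1, Cidea, Dio2 and Elovl3 (4 of 5 listed) was 4801 to 32335 CPM in iBAT, 84.7 to 8625 CPM in iWAT and 1.25 to 49.9 CPM in eWAT. Libraries iBAT539 (day 2) and iBAT548 (day 4) stood apart. Only 159 and 57 of their rows held exactly 1 count, against 1014 to 1224 in the other iBAT libraries. The summed levels, slow and myosin shares, edgeR counts and non-overlap counts of the muscle genes in cold-exposed iBAT are also given without them, and counts by DESeq2 or voom and counts over other gene lists are not.

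The summed level of the muscle genes differed many-fold between libraries of the same depot. At day 0 the 36 genes summed to 33689 CPM in iBAT516, 24956 CPM in iBAT517 and 80792 CPM in iBAT518. At day 2 they summed to 17273, 10297, 14060 and 12529 CPM, and at day 4 to 30507, 20172 and 6024 CPM. All 3 day 0 sums lay above all 4 day 2 sums, while the day 4 sums overlapped those of both other days. The overlap with day 0 rested on iBAT548, at 30507 CPM, since the other day 4 sums lay below all 3 day 0 sums. The mean of the day 0 group was 46479 CPM with iBAT518 and 29323 CPM without it, against 13540 CPM at day 2 and 18901 CPM at day 4 (13877 CPM without iBAT539 and 13098 CPM without iBAT548). Library iBAT518 was the highest of the 10 iBAT libraries for 32 of the 36 genes, and iBAT555 was the lowest for 21.

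In the white depots the sums were lower and concentrated in single libraries. In iWAT they were 93.9, 4346, 529 and 2356 CPM at day 0, 236, 102 and 170 CPM at day 2, and 293, 1312, 105, 72.5 and 856 CPM at day 4. Libraries iWAT517 and iWAT522 (day 0) and iWAT550 and iWAT555 (day 4) held the high values, and iWAT517 was the highest iWAT library for 16 of the 35 genes with counts there. In eWAT the sums were 2544, 151 and 105 CPM at day 0, 700, 121 and 172 CPM at day 2, and 127, 89.2 and 201 CPM at day 4. Only eWAT516 (day 0) and eWAT532 (day 2) exceeded 201 CPM in that depot. The lowest of the 10 iBAT libraries lay above the highest of the 21 white libraries for 19 of the 36 genes. These were 6 of the 7 slow genes, all but Casq2, with 4 of the 13 fast genes (Actn3, Myh2, Tnni2 and Atp2a1) and 9 of the 16 shared genes. The share of all rows that did so was not computed, so these counts only describe the listed genes. Within single days, iBAT lay above one white depot without overlap in 31 to 34 of the 36 genes. Of all rows, 3.12% to 7.43% did so.

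**Figure D1:**
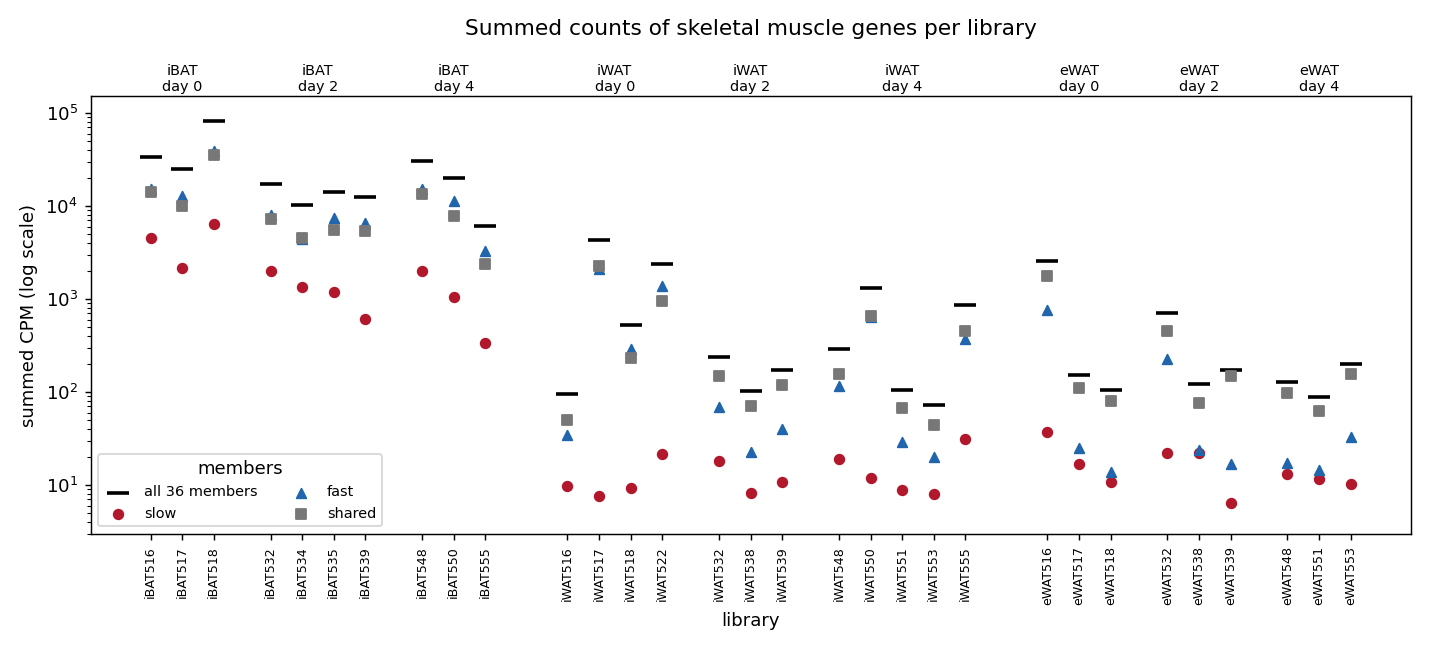
Summed CPM of the 36 muscle genes (black) and of the slow (red), fast (blue) and shared (grey) genes in each of the 31 libraries, on a log axis. Every iBAT library sits above every white library, and iWAT517, iWAT522 and eWAT516 stand above the rest of their depots.

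Per kilobase of transcript, the most abundant muscle genes of iBAT at day 0 were mostly those of small filament proteins. Tnnc2, the fast troponin C, averaged 9710 ± 6756 CPM per kb (SD, n = 3), and Acta1, the skeletal muscle actin, averaged 7042 ± 5510 CPM per kb. Tnni2, the fast troponin I, averaged 5301 ± 2662 CPM per kb and Mylpf, the fast regulatory light chain, 5024 ± 3089 CPM per kb. The slow light chains came next, with Myl2 at 2260 ± 872 CPM per kb and Myl3 at 1103 ± 583 CPM per kb. These neighbours in rank overlapped within their spread. The heavy chains were lower per kb, at 192 for Myh2, 146 for Myh1, 85.8 for Myh7 and 24.0 for Myh4. Mb, the oxygen store myoglobin, had 2 counts in all libraries together, and Ttn, the giant elastic filament, had 0.0904 CPM per kb. Each gene is represented by a single RefSeq transcript row, so its other transcripts may not be counted in these levels. Some counts may be shared with other genes. Of the 50-base windows of Tnnc2, 55.0% also occur in Ube2c, and the share was 31.5% for Myh1, 28.9% for Myh2, 28.7% for Myh7 and 62.4% for Tpm3.

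Promoters of 4 genes are shown, because they stand for the slow, the fast and the shared genes whose levels are compared here. Each covers 250 bases before to 50 after the transcript start, read along the gene's strand from RefSeq, build GRCm38.p6. Capitals mark matches, on either strand, to CAGCTG (an E-box of the kind myogenic factors bind), TATAAA, the MEF2 motif or the CArG box. The windows lie at chr9:110763428-110763727 for Myl3 (plus strand), chr7:127211358-127211657 for Mylpf (plus), chr11:67237562-67237861 for Myh4 (plus) and chr8:123894726-123895025 for Acta1 (minus).
Myl3: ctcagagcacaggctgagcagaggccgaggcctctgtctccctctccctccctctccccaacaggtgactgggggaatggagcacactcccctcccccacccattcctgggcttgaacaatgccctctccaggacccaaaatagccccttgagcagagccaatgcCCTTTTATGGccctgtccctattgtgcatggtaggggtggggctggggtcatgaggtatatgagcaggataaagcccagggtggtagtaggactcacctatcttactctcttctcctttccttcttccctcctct
Mylpf: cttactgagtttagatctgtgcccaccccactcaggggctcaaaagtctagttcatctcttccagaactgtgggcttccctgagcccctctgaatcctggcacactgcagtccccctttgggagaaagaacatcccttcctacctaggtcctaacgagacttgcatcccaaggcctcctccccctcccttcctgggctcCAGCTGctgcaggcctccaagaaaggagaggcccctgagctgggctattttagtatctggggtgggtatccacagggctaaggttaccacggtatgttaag
Myh4: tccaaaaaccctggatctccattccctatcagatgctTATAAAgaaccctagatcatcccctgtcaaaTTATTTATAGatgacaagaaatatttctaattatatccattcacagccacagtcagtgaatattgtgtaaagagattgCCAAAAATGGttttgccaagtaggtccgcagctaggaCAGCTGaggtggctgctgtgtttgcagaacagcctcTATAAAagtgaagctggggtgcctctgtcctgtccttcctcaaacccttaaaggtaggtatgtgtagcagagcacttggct
Acta1: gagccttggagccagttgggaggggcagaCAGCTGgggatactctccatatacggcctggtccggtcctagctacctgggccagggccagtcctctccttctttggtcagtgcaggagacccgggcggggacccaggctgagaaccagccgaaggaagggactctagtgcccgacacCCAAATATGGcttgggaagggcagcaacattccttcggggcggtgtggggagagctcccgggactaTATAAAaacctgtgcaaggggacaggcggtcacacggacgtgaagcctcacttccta
Myl3 held 1 CArG match and Mylpf 1 CAGCTG match. Myh4 held 1 E-box, 3 TATA and 1 CArG match, with 1 MEF2 match that overlaps a TATA match, and Acta1 held 1 E-box, 1 TATA and 1 CArG match. Over the 35 windows of the 29 muscle genes with an entry, CAGCTG occurred in 18 (51.4%), against 16.3% of 32851 windows of the same length. The MEF2 motif occurred in 7 of the 35, against 1.86% of all windows. CArG occurred in 3 (8.57%), against 1.63%, and TATAAA in 7, against 13.6%. A match describes the letters in the window and nothing about binding.

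At day 0 iBAT exceeded both white depots in nearly all muscle genes. Between iBAT and iWAT, 33 of the 35 genes tested were higher and none lower (edgeR quasi-likelihood test, adjusted p under 0.05), where 8.12% of all 11041 rows were higher and 9.77% lower. The median log2 difference was 9.18 over the 7 slow genes, 4.92 over the 13 fast genes and 4.94 over the 15 shared genes tested, against -0.18 over all rows. Between iBAT and eWAT, 31 of 35 were higher and none lower, where 5.07% of all rows were higher and 5.21% lower. The median over those 35 genes was 8.75 (8.53 with genes at 0 counts set to their bound), and by list it was 10.61 over the slow, 10.28 over the fast and 8.03 over the shared genes (10.61, 9.996 and 7.40 with those genes at their bound). A gene at or near 0 counts in white fat entered this fit through the depot where it was high. Myh4, Myh7, Myl1, Tnnt3, Tpm3 and Ttn had no count in eWAT at day 0. These counts and medians, and the calls and p-values of such genes, therefore only describe the genes that passed the low-count filter. These contrasts share the iBAT libraries. Without single libraries the counts of higher genes ran from 28 to 33 against iWAT (5.13% to 9.99% of all rows) and from 27 to 32 against eWAT (3.21% to 3.64%).

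Among the thick filament genes, the slow ones were near absent from white fat. Myl2, the slow regulatory light chain, was at 1522, 906 and 2060 CPM in iBAT at day 0, against 0 counts in all 4 iWAT libraries and 1 count over the 3 eWAT libraries. It was thus at least 5567-fold higher in iBAT than in iWAT, taking 3 counts over the group as the floor, and 17000-fold higher than in eWAT (counting interval 3051 to 671488). Myh7, the slow heavy chain, was at 476, 260 and 843 CPM in iBAT, against 1 count in iWAT and none in eWAT, at least 2016-fold higher than in eWAT. Both were higher by the edgeR test against each white depot (Myl2 adjusted p = 2.38e-06 against iWAT and 1.4e-05 against eWAT; Myh7 2.36e-07 and 7.5e-07). Both genes passed the low-count filter through the iBAT libraries, so these p-values add no support beyond the counts. Myl3, the slow essential light chain, was at 1149, 439 and 1513 CPM in iBAT, against 0.878, 1.46, 2.65 and 4.23 CPM in iWAT and 0, 1.49 and 0.293 CPM in eWAT. Its log2 difference was 9.18 ± 0.89 (SE) against iWAT and 11.04 ± 1.10 against eWAT. No white library came near the iBAT libraries for these 3 genes.

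Among the fast heavy chains, Myh2 was at 779, 799 and 1926 CPM in iBAT at day 0, against 0.585, 7.61, 5.96 and 23.6 CPM in iWAT and 1.02, 1.49 and 0.878 CPM in eWAT. Myh1 was at 662, 353 and 1588 CPM in iBAT, against 0.585, 234, 13.9 and 14.5 CPM in iWAT and 0, 0.248 and 0.293 CPM in eWAT. No day 0 library of Myh1 or Myh2 overlapped between iBAT and white fat. The Myh1 difference to iWAT was 4.13 ± 1.31 (edgeR, adjusted p = 0.0288), which was lost without iBAT518 (3.36, adjusted p = 0.118) or without iWAT516, iWAT518 or iWAT522. Myh4, the heavy chain of the fastest fibres, was at 77.7, 44.8 and 311 CPM in iBAT, against 0, 14.0, 0.662 and 1.41 CPM in iWAT and 0 counts in eWAT. Mylpf was at 2573, 2393 and 6578 CPM in iBAT, against 12.3, 143, 80.7 and 358 CPM in iWAT and 4.82, 8.94 and 1.17 CPM in eWAT. Myl1, the fast essential light chain, reached 11.7 CPM in iBAT518 and had 2 counts in iWAT and none in eWAT at day 0. This low level in all depots is that of a single transcript row, the higher of 2 rows for Myl1. Actn3, the fast fibre actinin, was at 628 to 2132 CPM in iBAT, against 0.292 to 87.9 CPM in iWAT and 3.30 to 4.39 CPM in eWAT.

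Most thin filament genes were also higher in iBAT. Acta1 was at 6629, 4610 and 19308 CPM in iBAT at day 0, against 3.51, 1481, 62.9 and 387 CPM in iWAT and 632, 34.5 and 24.9 CPM in eWAT. The groups did not overlap, and the log2 difference was 4.81 ± 1.37 against iWAT (edgeR, adjusted p = 0.0154, 0.069 without iBAT518) and 5.96 ± 1.64 against eWAT (0.0192, 0.0645 without iBAT518). Against eWAT the Acta1 call was also lost without eWAT517 or eWAT518. Tnni2 was at 3348, 2253 and 6039 CPM in iBAT, against 14.0, 287, 80.1 and 311 CPM in iWAT and 8.89, 3.48 and 0.293 CPM in eWAT, and was higher in both contrasts. Tnnc1, the slow troponin C, was at 670, 241 and 887 CPM in iBAT, against 0.662 to 2.12 CPM in iWAT and 0.293 to 1.78 CPM in eWAT (log2 difference 8.88 ± 0.69 and 9.44 ± 0.80). Tnnt1, the slow troponin T, was at 203 to 792 CPM in iBAT, against 3.80 to 8.82 CPM in iWAT and 6.15 to 11.2 CPM in eWAT. Tnnc2 was at 4671, 3503 and 12216 CPM in iBAT, against 1.76, 652, 49.0 and 347 CPM in iWAT and 629, 4.72 and 4.10 CPM in eWAT. It was higher than in iWAT (5.11 ± 1.68, edgeR adjusted p = 0.0353) but did not pass against eWAT (log2 difference 5.498 ± 1.94, adjusted p = 0.0703), and the iWAT call was lost without any of iBAT516, iBAT518, iWAT516, iWAT518 or iWAT522. Tnnt3, the fast troponin T, went the other way against iWAT, at 1.84, 2.66 and 13.6 CPM in iBAT and 0, 70.5, 5.29 and 36.7 CPM in iWAT (-1.80 ± 1.42, adjusted p = 0.397). Those Tnnt3 groups overlapped, and the levels are those of a single transcript row. Against eWAT, which had no Tnnt3 count, the edgeR call was lost without any single iBAT or eWAT library (adjusted p = 0.0675 to 0.173). The tropomyosin Tpm2 was at 673 to 2620 CPM in iBAT, against 2.05 to 137 CPM in iWAT and 1.49 to 43.2 CPM in eWAT, and Tpm3 at 29.0 to 52.7 CPM, against at most 0.662 CPM in iWAT and no count in eWAT. Neb, the large protein that runs along the thin filament, was at 99.5 to 526 CPM in iBAT, against 2.34 to 62.0 CPM in iWAT and 1.49 to 8.63 CPM in eWAT. Tpm2, Tpm3 and Neb were higher in both contrasts, but the Neb call against iWAT was lost without iBAT518 (log2 difference 3.64, edgeR adjusted p = 0.0754) or iWAT516 (4.01, 0.0553).

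Most of the calcium and energy genes tested were also higher in iBAT. Ckm against iWAT and Casq1 and Casq2 against eWAT did not pass, and Mb was not tested. Atp2a1, the fast calcium pump, was at 1097, 2438 and 5967 CPM in iBAT at day 0, against 4.10, 382, 24.5 and 149 CPM in iWAT and 0.762, 1.74 and 1.46 CPM in eWAT. Ryr1, the calcium release channel, was at 613, 301 and 1193 CPM in iBAT, against 2.63, 25.7, 1.99 and 28.2 CPM in iWAT and 2.54, 4.22 and 2.05 CPM in eWAT. Both were higher against each white depot, without overlap. Pygm, the muscle glycogen phosphorylase, was at 1728, 524 and 4148 CPM in iBAT, against 2.34, 93.6, 3.31 and 46.6 CPM in iWAT and 22.8, 13.7 and 14.6 CPM in eWAT. Ckm, the muscle creatine kinase, was at 1064, 1793 and 2373 CPM in iBAT, against 6.14, 374, 92.7 and 95.6 CPM in iWAT and 33.8, 0.745 and 0.585 CPM in eWAT. Ckm did not pass against iWAT (4.02 ± 1.51, edgeR adjusted p = 0.0645), although no library overlapped, and it was higher than in eWAT (7.71 ± 2.02, adjusted p = 0.0142), a call lost without eWAT517 or eWAT518. Casq1, the fast calcium store protein, was at 410, 179 and 935 CPM in iBAT, against 0.292, 65.5, 2.65 and 19.8 CPM in iWAT and 106, 0.497 and 0.878 CPM in eWAT. It passed against iWAT (4.92 ± 1.44, edgeR adjusted p = 0.0179, 0.0719 without iBAT518) and not against eWAT (4.33 ± 1.58, adjusted p = 0.0813). Pvalb, the calcium buffer of fast fibres, was at 150 to 662 CPM in iBAT, against 0.292 to 64.6 CPM in iWAT and at most 0.293 CPM in eWAT. Ckmt2, the mitochondrial creatine kinase, was at 745 to 1787 CPM in iBAT, against 0.292 to 38.8 CPM in iWAT and 0.254 to 1.74 CPM in eWAT. Pgam2, a muscle glycolytic enzyme, was at 297 to 1138 CPM in iBAT, against 2.34 to 103 CPM in iWAT and 1.27 to 5.71 CPM in eWAT. Pvalb, Ckmt2, Pgam2 and Pygm were higher in both contrasts, as was Phkg1, a phosphorylase kinase subunit, which differed least of these at 9.86 to 45.3 CPM in iBAT, against 1.46 to 5.96 CPM in iWAT and 4.22 to 6.44 CPM in eWAT. The Phkg1 call against eWAT was lost without iBAT518 (log2 difference 1.95, edgeR adjusted p = 0.128), eWAT516 (2.65, 0.061) or eWAT517 (2.53, 0.062).

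Z disc and scaffold genes were higher in iBAT in both contrasts, Des against eWAT excepted. Myoz2, a slow fibre Z disc protein that binds calcineurin, was at 134, 87.1 and 237 CPM in iBAT at day 0, against 0, 0.585, 0 and 0.353 CPM in iWAT and 0.254, 0 and 0 CPM in eWAT. From 3 counts over the iWAT group, its ratio was 576 (counting interval 197 to 2798). Actn2, the actinin of all striated fibres, was at 65.3 to 258 CPM in iBAT, against 2.65 to 19.9 CPM in iWAT and at most 0.254 CPM in eWAT. Myoz1, the fast fibre counterpart of Myoz2, was at 102 to 991 CPM in iBAT, against 0 to 83.1 CPM in iWAT and at most 0.254 CPM in eWAT. The Z disc proteins Tcap and Myot were at 49.0 to 110 and 94.7 to 322 CPM in iBAT, against at most 6.14 and 8.19 CPM in iWAT and at most 0.293 and 0.994 CPM in eWAT. Des, the intermediate filament desmin, which smooth muscle also makes, was at 612, 402 and 1156 CPM in iBAT, against 23.4, 57.6, 30.4 and 85.0 CPM in iWAT and 1002, 40.0 and 22.2 CPM in eWAT. It was higher than in iWAT (4.25 ± 0.86, edgeR adjusted p = 0.000893) and overlapped eWAT (1.52 ± 0.86, adjusted p = 0.31). Casq2, the calcium store protein of slow and heart muscle, was at 18.8 to 34.9 CPM in iBAT, against 0 to 6.00 CPM in iWAT and 4.10 to 24.1 CPM in eWAT, and it too did not pass against eWAT (1.58 ± 1.01, edgeR adjusted p = 0.391).

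**Figure D2:**
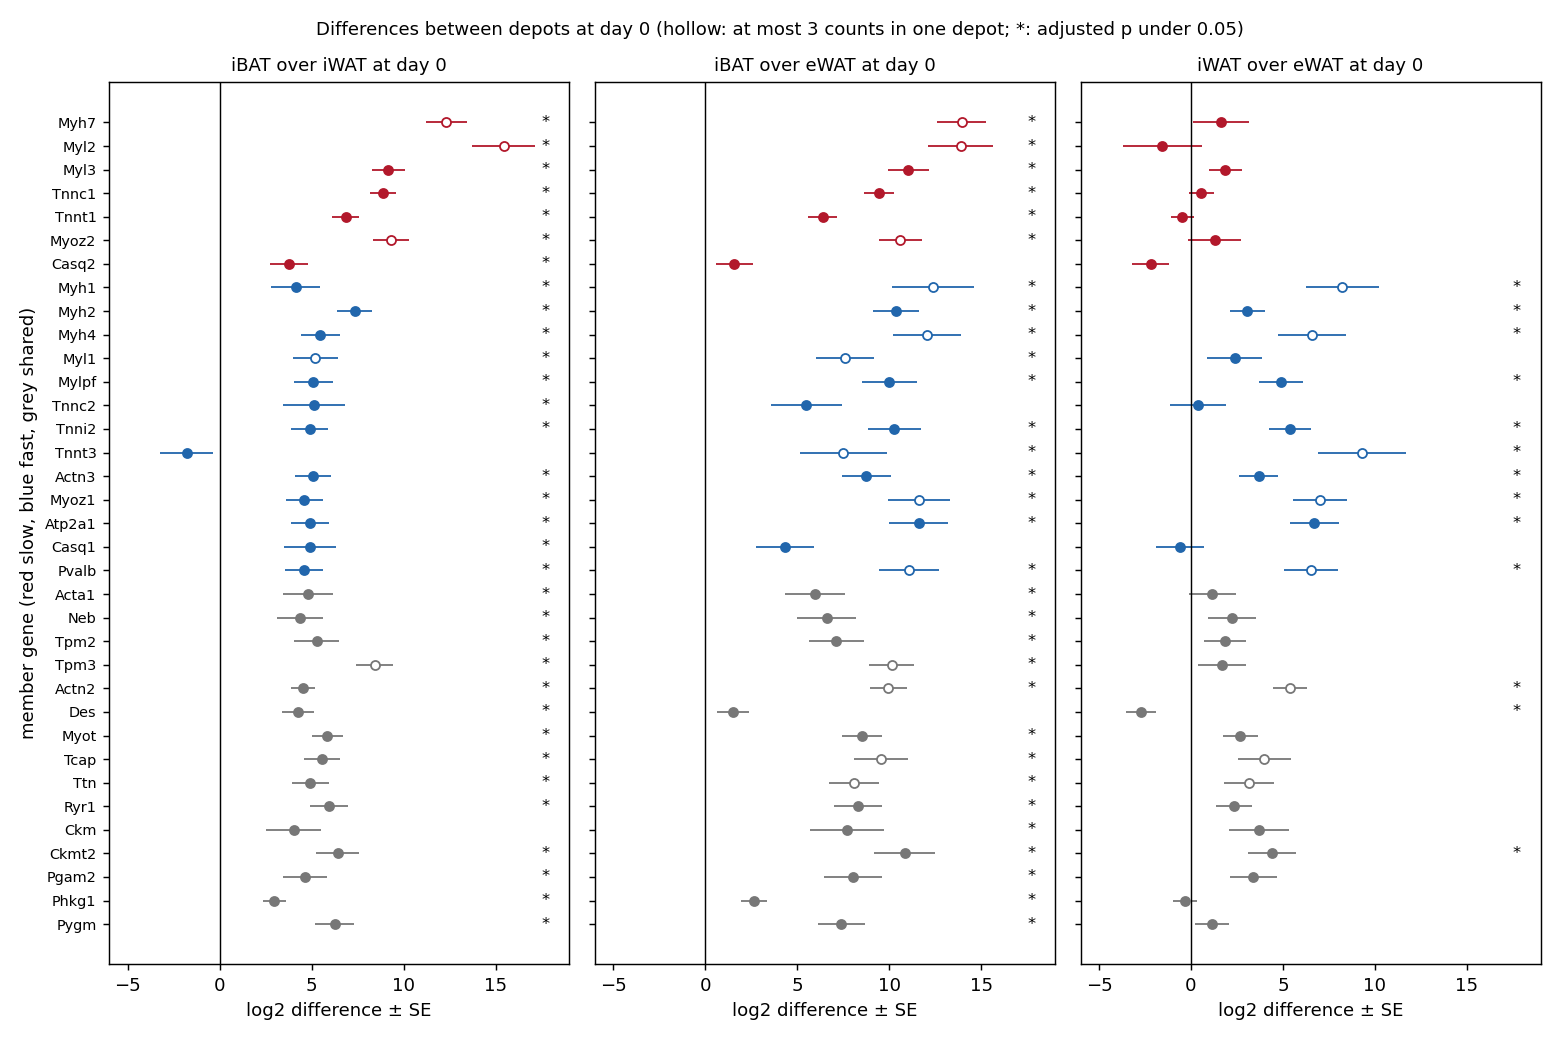
Log2 difference ± SE at day 0 for each muscle gene tested, in 3 panels for iBAT over iWAT, iBAT over eWAT and iWAT over eWAT, coloured by fibre type. Hollow points had at most 3 counts in one of the depots, stars mark an adjusted p under 0.05, and for iBAT over iWAT the slow genes Tnnc1, Myl3, Myoz2, Myh7 and Myl2 lie farthest to the right, whereas Tnnt1 and Casq2 lie among the fast and shared genes.

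**Figure D3:**
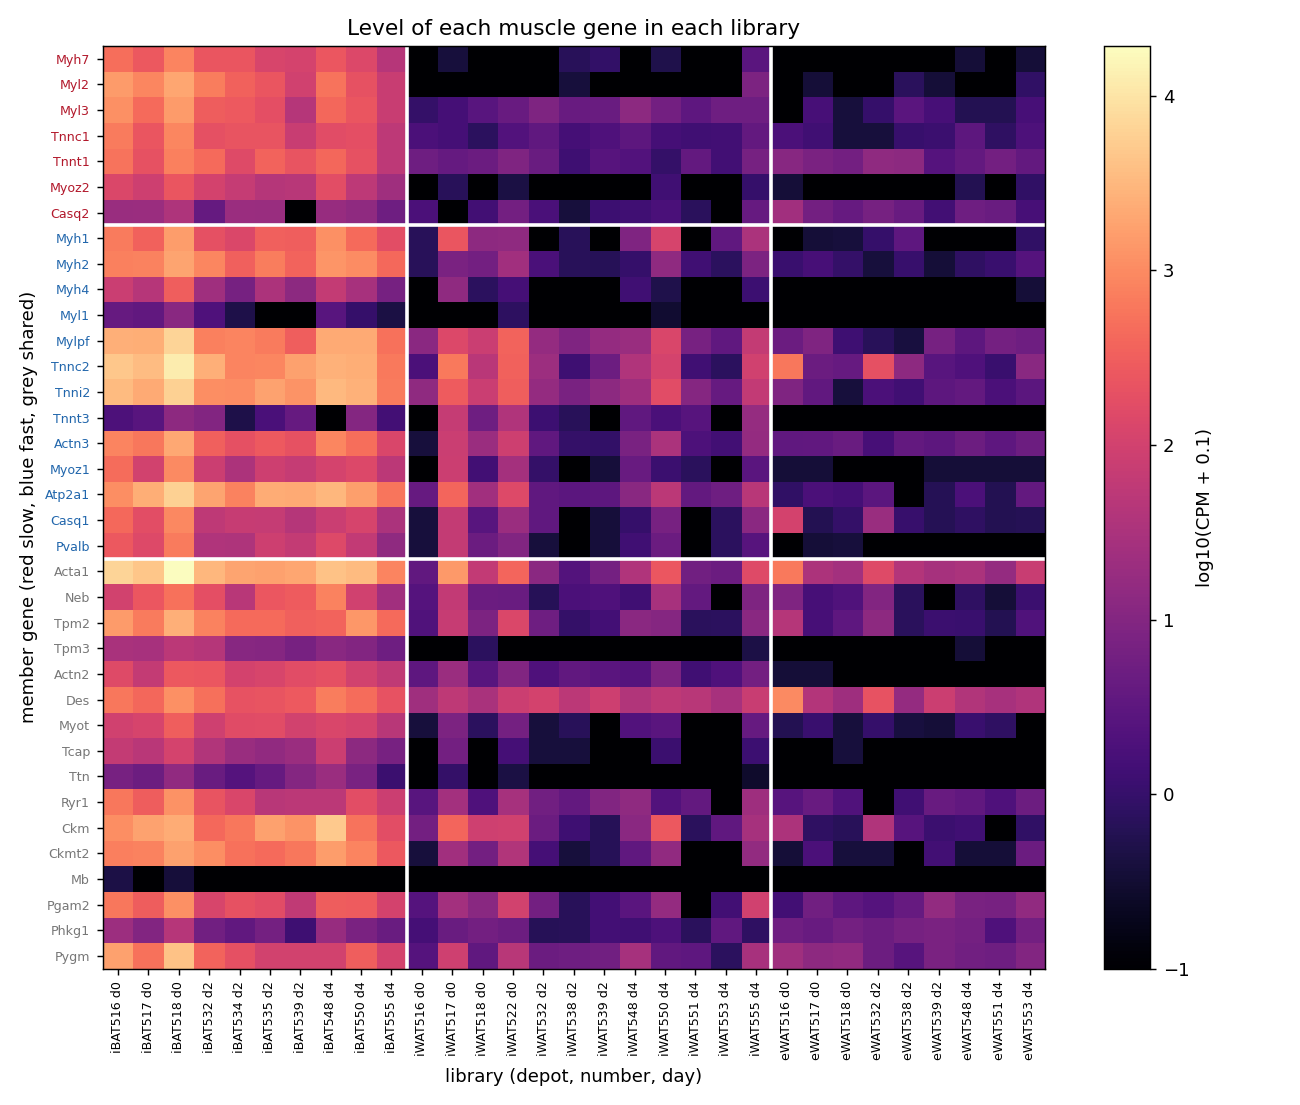
Level of each of the 36 muscle genes in each of the 31 libraries, as log10(CPM + 0.1), with genes grouped as slow, fast and shared. Brighter cells are higher levels: most slow rows are bright in iBAT alone, whereas fast and shared rows are also raised in iWAT517, iWAT522, iWAT550 and iWAT555.

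Slow genes took 8.40% to 23.4% of slow plus fast counts in the 10 iBAT libraries, against 0.364% to 7.82% in the 4 iWAT libraries with the highest muscle sums. By day, the iBAT shares were 22.9%, 14.4% and 13.9% at day 0, 19.8%, 23.4%, 14.0% and 8.40% at day 2, and 11.6%, 8.48% and 9.22% at day 4. The day 2 shares overlapped both other days, and the 3 day 4 shares lay below the 3 day 0 shares. The overlap of day 2 with day 4 rested on iBAT539, at 8.40%, since the other day 2 shares lay above all 3 day 4 shares. The Wilson 95% interval of a single iBAT share was at most 1.37 percentage points wide. In iWAT the slow share was 0.364% in iWAT517 (Wilson 95% interval 0.248 to 0.532), 1.53% in iWAT522 (1.19 to 1.96) and 3.11% in iWAT518 (1.86 to 5.15). It was 1.81% in iWAT550 (1.40 to 2.34) and 7.82% in iWAT555 (6.77 to 9.01), all below the lowest iBAT share of 8.40% in iBAT539 (8.48% without that library). The interval of iWAT555 overlapped those of iBAT539 (7.93 to 8.90), iBAT550 (8.16 to 8.82) and iBAT555 (8.68 to 9.80). In eWAT516 it was 4.72% (4.03 to 5.52) and in eWAT532 8.77% (7.04 to 10.9). The remaining white libraries with at least 100 such counts had slow shares of 14.0% to 47.9%, with slow sums of 8.10 to 21.9 CPM and fast sums of 14.5 to 117 CPM. Intervals cover counting error only and not the spread between libraries. The reads carry no molecular identifiers, so duplicate reads cannot be told apart and the intervals may be too narrow.

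The shares of the myosin heavy chains, which define fibre type most directly, also differed between iBAT and iWAT libraries. Per kilobase, Myh2 made up 38.8% to 66.4% of the 4 heavy chains in the 10 iBAT libraries, Myh1 14.5% to 42.0% (at most 34.6% without iBAT539 and iBAT548), Myh7 6.90% to 33.7% and Myh4 0.945% to 6.69%. In iWAT517 Myh1 made up 91.6% and Myh7 0.111%, and in iWAT550 Myh1 made up 89.0% and Myh7 0.304%. In iWAT555 the shares were 74.2% for Myh1 and 5.92% for Myh7, and in iWAT522 they were 59.3% for Myh2 and 37.2% for Myh1 with no Myh7 count. The iWAT555 shares rest on 247 heavy chain counts, 15 of them Myh7, and the iWAT522 shares on 112. No counting interval was computed for these shares, so the gap in Myh7 between 5.92% and the lowest iBAT share of 6.90% is not resolved. The 4 muscle-rich iWAT libraries therefore differed among themselves in the leading heavy chain, and 3 of them exceeded every iBAT library in the Myh1 share. Reads of Myh1, Myh2 and Myh4 cannot be fully separated where their sequences are identical.

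**Figure D4:**
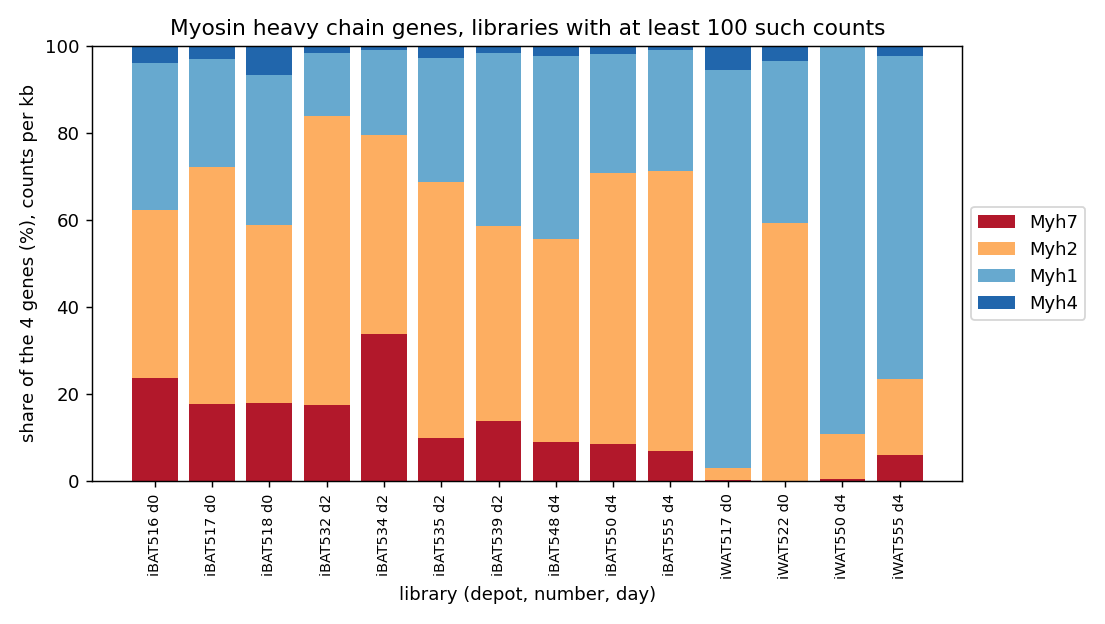
Stacked shares (%, per kilobase) of Myh7, Myh2, Myh1 and Myh4 in the 14 libraries with at least 100 counts over these heavy chains. Myh7 takes 6.90% to 33.7% in the 10 iBAT libraries and at most 5.92% in the 4 iWAT libraries, where Myh1 leads in all but iWAT522.

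Between the white depots at day 0, most of the genes that were higher in iWAT were fast genes. Of the 35 genes tested, 12 were higher in iWAT than in eWAT and 1 was lower (edgeR), where 5.02% of all rows were higher and 2.8% lower. The 12 comprised 10 of the 13 fast genes, no slow gene and the shared genes Actn2 and Ckmt2. In eWAT at day 0, Myh4 and Tnnt3 had no count and Actn2, Myh1, Pvalb and Myoz1 had 2 counts each. Such genes passed the low-count filter through other libraries, where they were high. The counts, calls and p-values here therefore only describe the genes that passed. Tnnt3 had 353 counts in iWAT and none in eWAT, at least 120-fold higher, and Myh1 had 864 counts against 2 (ratio 440, counting interval 121 to 3637). Myoz1 had 361 counts against 2 (ratio 184, 50.5 to 1523). Library iWAT517 held 800 of these Myh1 counts, 241 of the Tnnt3 counts and 284 of the Myoz1 counts, and the intervals do not cover this spread between libraries. The Myh1 call was lost without iWAT517 (log2 difference 5.48, edgeR adjusted p = 0.0643) or eWAT516 (7.70, 0.0681), and the Tnnt3 call without any single eWAT library (edgeR adjusted p = 0.0552 to 0.0805). The Ckmt2 call was lost without iWAT517, iWAT522 or any single eWAT library. The count of higher genes was 7 without iWAT517 (3.94% of all rows), 4 without eWAT516 (2.38%), 7 without eWAT517 (2.91%) and 7 without eWAT518 (3.7%). With voom it was 6 (5.77% of all rows), and with libraries of one label number as a block it was 6 (4.08%). Acta1 (1.14 ± 1.28, edgeR adjusted p = 0.66), Tnnc2 (0.39 ± 1.51, 0.911) and Ckm (3.69 ± 1.65, 0.185) did not pass. Des was lower in iWAT (-2.73 ± 0.81, edgeR adjusted p = 0.0354), and without eWAT516 its difference was 0.68 (adjusted p = 0.706). The Des call was also lost without iWAT516, iWAT517 or iWAT518.

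The eWAT libraries with raised muscle sums had a different make-up. In eWAT516, Des was at 1002 CPM, Acta1 at 632 CPM, Tnnc2 at 629 CPM, Casq1 at 106 CPM, Tpm2 at 43.2 CPM and Ckm at 33.8 CPM. In the same library Myh1 had no count, Myh2 was at 1.02 CPM, Atp2a1 at 0.762 CPM and Actn2, the sarcomeric actinin, at 0.254 CPM. In eWAT532, Des was at 219 CPM, Tnnc2 at 201 CPM, Acta1 at 157 CPM, Ckm at 36.4 CPM and Casq1 at 19.3 CPM, with Myh1 at 0.889 CPM and Actn2 without a count. The muscle-rich iWAT libraries instead held Myh1 and Atp2a1 beside Acta1. Smooth muscle markers (Acta2, Tagln, Cnn1, Lmod1 and Actg2, 5 of 7 listed) summed to 9623 CPM in eWAT516 and 3759 CPM in eWAT532, against 168 to 1186 CPM in the other eWAT libraries, 56.0 to 627 CPM in iWAT and 47.9 to 132 CPM in iBAT. The part of smooth muscle in these eWAT values was not tested.

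**Figure D5:**
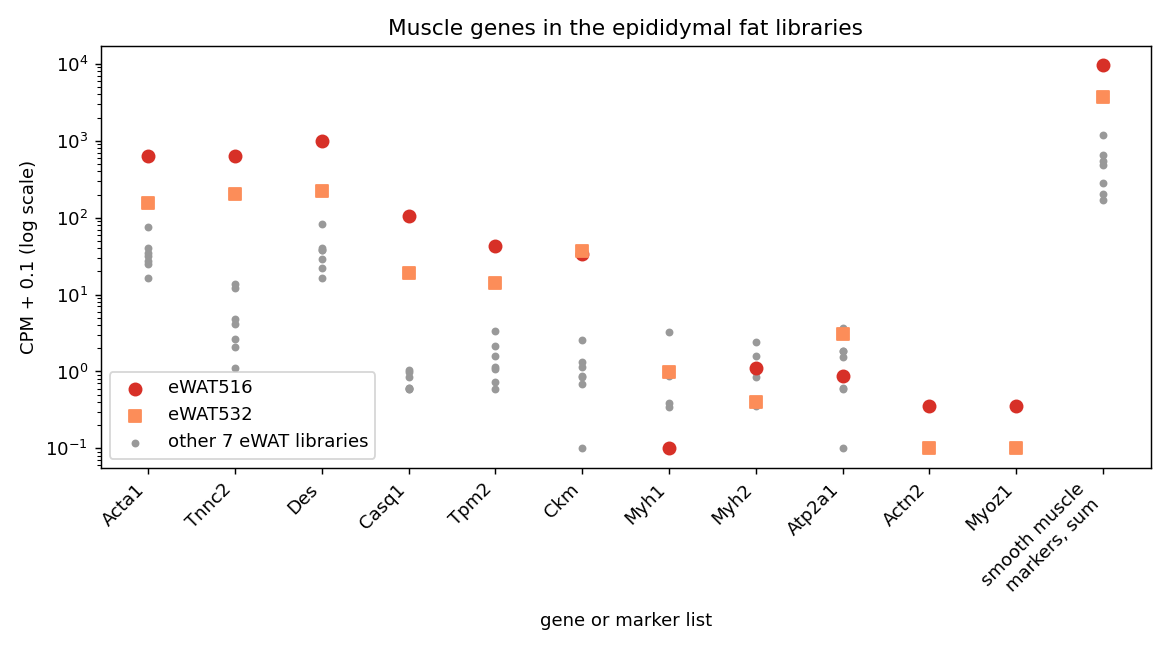
CPM + 0.1 on a log axis of 11 muscle genes and of the smooth muscle sum in eWAT516, eWAT532 and the other 7 eWAT libraries. Acta1, Tnnc2, Des and Casq1 are raised in eWAT516 and eWAT532 while Myh1, Myh2, Atp2a1, Actn2 and Myoz1 stay at or below 3.62 CPM in all 9 libraries.

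The depot difference was also found after cold exposure. At day 2, iBAT exceeded iWAT in 32 of 35 genes (edgeR, 5.87% of all rows higher and 9.74% lower) and eWAT in 28 (7.29% of all rows higher and 10.5% lower), with none lower. At day 4 the counts were 34 (5.83% of all rows higher and 11.7% lower) and 33 (6.67% higher and 11.4% lower), again with none lower. Without iBAT539 and iBAT548 32 genes were higher than in iWAT (5.89% of all rows) and 28 than in eWAT (7.58%) at day 2, and 30 (6.71%) and 32 (6.04%) at day 4. Blocking on label number left 21 higher in iBAT than eWAT at day 4 (3.89% of all rows). Myl2 had 2894 counts in iBAT at day 2 against 1 in iWAT, a ratio of 3480 (counting interval 624 to 137497), and Actn2 had 1342 counts against none in eWAT, at least 529-fold higher. At day 4 Myh7 was at 251, 142 and 45.6 CPM in iBAT, against 0 to 2.71 CPM in iWAT (7.84 ± 0.79, edgeR adjusted p = 1.23e-06). Myh7 passed the low-count filter through iBAT, so this p-value adds no support beyond the levels. Phkg1 did not pass between iBAT and eWAT at day 2 (-0.07 ± 0.65, edgeR adjusted p = 0.96), and nor did Des, Tnnc2, Tnnt3, Casq1, Casq2 or Myl1. Tnnt3 did not pass against iWAT at either day (3.00 ± 1.71, adjusted p = 0.265 at day 2; 0.22 ± 1.37, 0.931 at day 4).

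Between the white depots after cold, fewer genes passed. At day 2 Actn2 was higher in iWAT, with 29 counts against none in eWAT (at least 9.501-fold), and Phkg1 was lower (-2.85 ± 0.77, edgeR adjusted p = 0.0181), where 5.03% of all rows were higher and 5.16% lower. The Phkg1 call was lost without iWAT532 or iWAT538. Some Phkg1 sequence also occurs in Sumf2, and the part of Sumf2 reads in this difference was not tested. Without eWAT539, 2 genes were higher (4.89% of all rows) and 2 lower (6.05%). At day 4, 6 genes were higher and none lower (4.49% of all rows higher and 5.44% lower): Myh1, Actn2, Ckm, Tnni2, Atp2a1 and Myl3. Myh1 was at 8.78, 119, 0, 3.33 and 32.9 CPM in iWAT, against 0, 0 and 0.776 CPM in eWAT (6.94 ± 1.87, edgeR adjusted p = 0.0166). Genes at or near 0 counts in eWAT, such as Myh1 and Actn2, passed the low-count filter through other libraries, where they were high. The day 2 and day 4 counts, calls and p-values here therefore only describe the genes that passed. The Myh1 call was lost without iWAT550, eWAT548 or eWAT551. The day 4 count of higher genes was 3 without iWAT550 (3.84% of all rows), 2 without eWAT548 (2.73%), 1 without eWAT551 (2.07%) and 4 without eWAT553 (2.7%). It was 10 with DESeq2 (6.97% of all rows), 1 with voom (4.61%) and 1 with the block (2.37%).

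Cold exposure changed no muscle gene past the test in iBAT by edgeR, where 0.133% of all rows were higher and 0.0242% lower at day 2 and 0.0% at day 4. Most had negative differences. At day 2, 33 of the 34 genes tested had a negative difference to day 0, with a median of -1.40 against 0.01 over all rows, and at day 4, 31 of 34 with a median of -0.94 against -0.04 over all rows. The brown adipocyte markers differed in the other direction, with 4 of the 4 tested positive at each day and medians of 2.53 and 2.18. Dio2 and Elovl3 were higher at day 2 by edgeR and none at day 4. Their summed level was 7014 to 32335 CPM at day 2 and 16661 to 24462 CPM at day 4, against 4801 to 9145 CPM at day 0, and its part in the muscle values was not tested. The day 2 and day 4 differences share the day 0 libraries. Members with a negative difference at an unadjusted p under 0.05 numbered 19 at day 2 (5.13% of all rows) and 12 at day 4 (3.29%), with none positive. DESeq2 called 13 lower at day 2 (1.46% of all rows) and 3 at day 4 (0.326%), and voom called 0 at either day. Without iBAT539 and iBAT548, 34 of the 35 genes then tested were negative at each day (median -1.23 at day 2 and -1.76 at day 4, with 18 and 22 at an unadjusted p under 0.05, where 8.6% and 6.85% of all rows were negative at that threshold), and edgeR again called 0. Without iBAT518, 27 of 34 were negative at day 2 (median -0.80, 7 at an unadjusted p under 0.05, against 2.47% of all rows) and 23 of 34 at day 4 (median -0.39, 5 such genes, against 1.82% of all rows).

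By library, 20 of the 36 genes were lower in all 4 day 2 libraries than in all 3 day 0 libraries, where 12.4% of all rows were, and 14 of 36 at day 4, where 16.5% of all rows were. Without iBAT539 and iBAT548 the counts were 21 (14.8% of all rows) and 22 (26.7%), an alternative added after seeing the data. Acta1 was at 3056, 1882, 1757 and 2032 CPM at day 2, below 6629, 4610 and 19308 CPM at day 0 (-1.95 ± 0.57, edgeR adjusted p = 0.21, and -1.09 without iBAT518). Among the slow genes, Myl3 was at 301, 276, 189 and 42.3 CPM at day 2, against 1149, 439 and 1513 CPM at day 0 (-2.08 ± 0.67, adjusted p = 0.243). Myl2 was at 705, 356, 236 and 98.4 CPM, against 1522, 906 and 2060 CPM (-1.85 ± 0.67, adjusted p = 0.291). Among the fast genes, Tnnc2 was at 2557, 856, 899 and 1756 CPM, against 4671, 3503 and 12216 CPM (-1.91 ± 0.59, adjusted p = 0.215), and Mylpf at 772, 873, 671 and 322 CPM, against 2573, 2393 and 6578 CPM (-2.26 ± 0.56, adjusted p = 0.153). None of these groups overlapped.

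Of the energy and calcium genes, some were lower in every cold library and others overlapped. Pygm was at 369, 196, 102 and 99.6 CPM at day 2 and 102, 320 and 104 CPM at day 4, against 1728, 524 and 4148 CPM at day 0 (-3.22 ± 0.71 and -3.31 ± 0.80, edgeR adjusted p = 0.109 and 0.315). Casq1 was at 55.8, 72.2, 69.0 and 42.8 CPM at day 2 and 80.3, 119 and 32.3 CPM at day 4, against 410, 179 and 935 CPM at day 0 (-2.78 ± 0.57 and -2.45 ± 0.62, adjusted p = 0.0922 and 0.378). These 2 genes and Ryr1 were also called lower at both days by DESeq2. Atp2a1 was not separated, at 1946, 825, 2330 and 2193 CPM at day 2, against 1097, 2438 and 5967 CPM at day 0 (-0.50 ± 0.64, edgeR adjusted p = 0.776). Ckm was at 4896, 546 and 179 CPM at day 4, against 1064, 1793 and 2373 CPM at day 0 (0.31 ± 0.94, adjusted p = 0.964), and without iBAT539 and iBAT548 its difference was -1.97. The immediate early genes were lower in the cold libraries, summing to 367 to 825 CPM at day 2 and 318 to 495 CPM at day 4, against 2000, 3722 and 1254 CPM at day 0. Within day 0, iBAT518 had the highest muscle sum and the lowest immediate early sum. The part of the immediate early genes in the result was not tested.

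In iWAT, cold also changed no muscle gene past the test by edgeR, as for all rows (0.0% in either direction at either day). At day 2, 23 of the 26 genes that passed the low-count filter had a negative difference. At an unadjusted p under 0.05, 20 were negative and 1 positive (6.43% of all rows negative), while DESeq2 called 8 lower (0.595% of all rows) and voom 0. A gene at or near 0 counts at day 2 passed the filter through libraries of the other days, where it was higher. These counts therefore only describe the genes that passed. The brown adipocyte markers differed in the other direction, with 4 of the 4 tested positive at each day, all at an unadjusted p under 0.05, and medians of 3.92 at day 2 and 2.90 at day 4. Their summed level was 4206 to 8625 CPM at day 2 and 707 to 5673 CPM at day 4, against 84.7 to 649 CPM at day 0, and its part in the muscle values was not tested. Myh1 was at 0, 0.579 and 0 CPM at day 2, against 0.585, 234, 13.9 and 14.5 CPM at day 0, and Atp2a1 was at 3.39, 2.89 and 3.02 CPM, against 4.10, 382, 24.5 and 149 CPM (-5.34 ± 1.37, edgeR adjusted p = 0.264). Of the 36 genes, 6 were lower in all day 2 libraries than in all day 0 libraries (4.58% of all rows) and 1 was higher (3.71%). The higher one was Myl3, at 8.48, 4.34 and 4.40 CPM at day 2, against 0.878, 1.46, 2.65 and 4.23 CPM at day 0 (1.44 ± 0.63, edgeR unadjusted p = 0.0389). At day 4, 23 of 26 were negative and 6 passed an unadjusted p under 0.05, 5 negative (3.82% of all rows) and Myl3 positive (1.69 ± 0.58, edgeR adjusted p = 0.491). DESeq2 and voom called 0 at day 4, and none of the 36 genes separated the groups at day 4, where 1.07% of all rows were lower without overlap.

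In eWAT 13 of the 36 genes passed the filter, and edgeR (0.0% of all rows in either direction), DESeq2 and voom called 0 at either day. At day 2, 1 gene had a negative difference at an unadjusted p under 0.05 (0.558% of all rows). It was Pygm (-1.58 ± 0.52), at 5.04, 2.51 and 7.73 CPM against 22.8, 13.7 and 14.6 CPM at day 0, and it alone of the 36 separated the groups (3.65% of all rows lower and 1.59% higher without overlap). At day 4 Des (-3.10 ± 1.35), Tnnc2 (-5.16 ± 2.23) and Tpm2 (-3.48 ± 1.48) had negative differences at that threshold (1.18% of all rows), and all 3 were highest in eWAT516. Without eWAT516 the differences were 0.33 for Des, 0.32 for Tnnc2 and -0.80 for Tpm2. Smooth muscle markers also had negative differences at day 4 in 5 of 5 genes (median -2.78, 3 at an unadjusted p under 0.05), with sums of 168 to 1186 CPM at day 4, against 200.5 to 9623 CPM at day 0. Other cells also make Des and Tpm2, and the part of smooth muscle in these differences was not tested. At day 4, Tnnt1, Pygm and Neb were below day 0 in every library (7.09% of all rows) and Pgam2 was above (2.45%). Des was at 38.2, 28.9 and 37.8 CPM at day 4, against 1002, 40.0 and 22.2 CPM at day 0, so the groups overlapped.

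Whether the change from day 0 differed between depots was tested directly, and edgeR called 0 of 35 genes, and 0.0% of all rows, in each of the 4 tests. At an unadjusted p under 0.05, 11 genes passed for the day 2 change in iBAT minus that in iWAT (10.4% of all rows) and 4 for the day 4 change (5.76%). For iBAT minus eWAT, 2 passed for day 2 (4.29%) and 4 for day 4 (4.03%). Without iBAT539 and iBAT548 these counts were 9 (9.73% of all rows), 5 (5.65%), 2 (4.61%) and 4 (3.09%). DESeq2 called 1 higher (0.734% of all rows) and 1 lower (0.0996%) in the first of these and 0 in the others, and voom called 0. For the day 2 change in iBAT minus that in iWAT, Myl3 was at -3.61 ± 0.99 (edgeR adjusted p = 0.423) and Atp2a1 at 4.72 ± 1.48 (adjusted p = 0.432). Many other genes entered this fit through iBAT alone and were at or near 0 counts in iWAT, so no median is given.

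Further muscle genes that are not on the list were measured for comparison. Of 40 such genes, 31 had a row, and they summed to 793 to 6423 CPM in iBAT, 31.3 to 334 CPM in iWAT and 17.0 to 49.8 CPM in eWAT. At day 0, 24 of the 25 tested were higher in iBAT than in iWAT (8.12% of all rows) and 22 of 25 than in eWAT (5.07%) by edgeR. Genes near 0 counts in white fat, such as Klhl40, Trdn and Lmod2 in eWAT, passed the low-count filter where they were high. These counts therefore only describe the genes that passed, and this list too was chosen with earlier results of these data known. At day 2 of cold in iBAT, 21 of 24 were negative and edgeR called 0. Heart muscle markers (5 of 8 with a row) summed to 4.02 to 16.5 CPM in iBAT, against 14.97 to 47.8 CPM in iWAT and 14.6 to 37.4 CPM in eWAT, and of the satellite cell markers Pax7 had 2 counts in all and Myf5 at most 9.58 CPM in any library. Chrne, a receptor subunit of the neuromuscular junction that is on the same list, was at most 14.9 CPM.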

How the data were processed

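RNA-seq of 31 fat libraries was analysed from the raw counts per RefSeq transcript that the authors deposited. Per the submitters' processing notes, reads were handled with cutadapt and BWA on mm10; versions and the counting step are not given in the sources used here. Empty cells were read as 0. Symbols came from RefSeq GRCm38.p6 (17030 of 17334 accessions) and GENCODE M21 (105). The muscle genes and marker lists were chosen with earlier results of these data known, and the list of named genes was the key members plus, per comparison, up to 3 called genes with the largest change in each direction and 3 uncalled ones of highest level. Levels are CPM of the plain total, with no test for sums or shares.

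Tests used edgeR 4.0.16 (R 4.3.3): TMM factors, filterByExpr (minimum count 10, total 15), robust quasi-likelihood F-test, Benjamini-Hochberg over all rows tested, threshold 0.05. Cold contrasts were fitted per depot (8270, 9574 and 10043 rows), and depot and interaction contrasts in 1 fit of all libraries (11041 rows). The script was tested on simulated data. SE is the log2 difference over the root of F. Alternatives were no filter, RLE factors, plain library sizes, voom (limma 3.58.1), DESeq2 1.42.0, a library score covariate (a library's place on the within-group axis of the other depots, muscle genes left out), symbol rows summed, leaving out iBAT539 and iBAT548, 1 fit of all libraries for the cold contrasts, the label number as a block, and leaving out each library. Same-numbered libraries of different depots correlated at -0.44 to 0.36, and different-numbered ones of the same day at -0.59 to 0.55. These ranges cannot tell whether a number marks the same animal, so the label number was a block in an alternative only. Shares carry Wilson 95% intervals, and ratios from at most 3 counts carry exact counting intervals. No genome sequence or protein table was used here.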

Additional observations from a re-analysis of the deposited data

Results flagged for a closer look

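Single iWAT libraries stood far above the other libraries of their group by a gap test within groups of 4 or 5 libraries. Only iBAT at day 2 and iWAT at days 0 and 4 had enough libraries. Groups of 3, among them iBAT at day 0 and all eWAT groups, could not be flagged. The test flagged 11 of 71 combinations of a group with a gene or a sum, and chance flags about 1 in 20 where values are normally distributed. That rate was not computed for skewed CPM with many zeros, as here. In iWAT517 (day 0), Myh1 was at 234 CPM, Myh4 at 14.0 CPM and Myh7 at 0.29 CPM, each the highest of its group. In iWAT522 (day 0), Myl1 was at 0.71 CPM and the slow genes summed to 21.52 CPM. In iWAT550 (day 4), Ckm was at 261 CPM, Myh1 at 119 CPM and Myl1 at 0.21 CPM. In iWAT555 (day 4), Tnnt3 was at 17.55 CPM, Myl2 at 8.14 CPM and Myh7 at 2.71 CPM. The 2 Myl1 values and the Myh7 value of iWAT517 rest on 1 or 2 counts.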

How the results depend on the processing

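Differences between iBAT and each white depot were recomputed for all muscle genes tested, and those past the threshold kept their direction under each alternative run. Across the single-gene differences recomputed, 2721 settings kept direction and side of the threshold, 123 lost the threshold, 38 gained it and 14 reversed. Without single libraries 2016 held, 109 lost it, 6 gained it and 29 reversed. For cold in iBAT, where edgeR called 0, DESeq2 gave 13 calls at day 2 (1.46% of all rows lower) and 3 at day 4 (0.326% lower). No filter gave 1 call at day 2, and the share of all rows in that run is not given here. DESeq2 gave 8 in iWAT at day 2 (0.595% of all rows lower). It gave 2 for the day 2 change in iBAT minus that in iWAT (0.734% of all rows higher and 0.0996% lower). For iWAT over eWAT, the day 0 count of 13 became 6 with voom and 4 to 12 without single libraries, the day 2 count of 2 became 1 to 4, and the day 4 count of 6 became 10 with DESeq2, 1 with voom and 1 to 7 without single libraries. These counts take both directions together. Shares of all rows are given in the Results for the runs named there and not for the others. The summed level of iBAT at day 2 was 17407 CPM on TMM-scaled sizes (13540 on plain totals), and that of iWAT at day 2 was 84.5 CPM without genes that other cells of fat make (169 with them). Library size alone moved the median of all rows in iBAT at day 2 to -0.27 and that of the muscle genes to -1.68.

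The replicate block was fitted for the depot contrasts, though the label numbers were not shown to pair libraries. With it the count became 6 (7 with the library score) for iWAT over eWAT at day 0, 1 (2 with the score) at day 4, and 21 for iBAT over eWAT at day 4. Shares of all rows with the block alone are in the Results, and those with the score are not given here. No paired analysis was possible because the days of a depot share no label number for the cold contrasts.

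Some differences reversed, none of them past the threshold where it reversed, and the cause was not tested. Ckm in iBAT at day 4 (0.31) was -1.19 with the library score, -0.82 with voom, -1.97 without iBAT539 and iBAT548, and -1.96 to 0.84 without single libraries. Tnnt3 in iBAT was 0.50 with the score and -1.28 to 0.96 without single libraries at day 2, and 0.22 without iBAT539 and iBAT548 and -2.83 to 1.04 at day 4. Without single libraries, Atp2a1 in iBAT ranged from -0.92 to 0.33 at day 2 and -1.18 to 0.23 at day 4, and Des from -0.79 to 0.082 at day 4. Myh1 ranged from -1.16 to 0.44 and Myh2 from -0.36 to 0.46 in iBAT at day 4. In iWAT at day 4, Ckm ranged from -3.59 to 0.15, Des from -0.070 to 0.54, Myh1 from -2.45 to 1.98 and Myh2 from -1.70 to 0.40. In iWAT over eWAT at day 0, Des ranged from -3.28 to 0.68, Acta1 from -0.52 to 4.00 and Tnnc2 from -0.58 to 5.86. In eWAT at day 4, Des ranged from -3.62 to 0.33 and Tnnc2 from -6.88 to 0.32. Among uncalled differences of iBAT to white fat, Casq2 over eWAT at day 2 (2.04) was -1.11 with the replicate block and -1.06 with the block and score. Phkg1 over eWAT at day 2 (-0.07) was 0.28 without iBAT539 and iBAT548 and -0.45 to 0.25 without single libraries. Tnnt3 over iWAT was 0.16 with the replicate block at day 0 (-1.80). At day 4 (0.22) Tnnt3 was -0.46 with the score, -0.47 with library size alone, -1.28 with the block, -2.43 with block and score, -0.97 with voom, and -2.24 to 1.35 without single libraries. Differences that rest on few counts, such as those of Myl1, are imprecise at these depths, and why those counts are low was not tested.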
